A study of Mus musculus with 9 samples.

Results

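The 39 mouse Hox genes were followed across 9 RNA-seq libraries of mouse embryonic fibroblasts, cells grown out of embryos of the C57BL/6 strain. Members were every row of the count table whose symbol is Hox, a cluster letter from a to d and a number, which gave 39 of 24062 genes by name alone. They comprised 11 genes of the HoxA cluster on chromosome 6, 10 of HoxB on chromosome 11, 9 of HoxC on chromosome 15 and 9 of HoxD on chromosome 2. The groups, of 3 libraries each, were cells overexpressing p21 from a lentivirus, cells overexpressing p16 from a lentivirus, and control cells given the empty vector. RNA of every group was taken on day 10, by which time the treated cells are described as senescent. The labels differ on the control cells: their titles say control with no mention of senescence, unlike the titles of p21 and p16 libraries, whereas the status field of the p21 and control records reads senescent and the p16 records have no such field. The sources used here do not give the embryos' age, any pooling of embryos, the vectors' promoter or whether replicates were separate cultures, and p-values here reflect no more than the spread among these 9 libraries.

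Hox genes encode homeodomain transcription factors that give cells an address along the body and limb axes. Within a cluster the genes lie in the order in which they are used along the embryo, from low paralogue numbers (head and neck) to high ones (tail end and distal limb). Fibroblasts are known to keep much of this code in culture, so that it records where in the embryo the cells came from. p21 (Cdkn1a) and p16 (Cdkn2a) are inhibitors of cyclin-dependent kinases that can hold cells in permanent arrest. Below, paralogues 1 to 3 are called anterior, 4 to 8 central and 9 to 13 posterior.

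Libraries held 56.9 to 76.1 M counts (M, 1000000), of which 19848 to 26228 fell on Hox genes. The overexpressed genes followed the labels, with Cdkn1a at 1080 to 1220 CPM in p21 libraries and 317 to 399 CPM in control libraries, and Cdkn2a at 944 to 1070 CPM in p16 libraries and 59.6 to 68.8 CPM in control libraries (CPM, counts per 1000000 after TMM scaling). Fibroblast markers summed to 29400 to 33100 CPM in p21, 30700 to 35600 CPM in p16 and 25100 to 36600 CPM in control libraries, with none of 9 markers at 0. Replicate 3 of every group stood apart, with Xist at 158 to 397 CPM there and at most 1.34 CPM in the other 6 libraries, and the Y-linked Ddx3y at 1.1 to 10.8 CPM there and 50.1 to 68.5 CPM in the others. These libraries were not alike, as p21 replicate 3 had Xist at 158 CPM and Ddx3y at 10.8 CPM. In replicate 3 of p16 and control, Xist was at 262 and 397 CPM and Ddx3y at 1.26 and 1.1 CPM. The reason was not tested, and the term for replicate 3 used below treats these libraries as alike. Among markers of other cells, the macrophage list reached 21.4 to 37.3 CPM in p21, 9.93 to 12.6 CPM in p16 and 11.1 to 12.6 CPM in control libraries, with none of 8 markers at 0. The cartilage and bone list, led by Col2a1, summed to 441 to 687 CPM in p21, 675 to 1140 CPM in p16 and 741 to 1430 CPM in control libraries, none of 6 markers being at 0. The skeletal muscle list summed to 193 to 232 CPM in p21, 148 to 159 CPM in p16 and 77.3 to 106 CPM in control libraries, nearly all of it Des (193 to 231, 148 to 158 and 77.0 to 105 CPM). Its defining markers Myod1, Myog and Myh3 were at most 0.0581 CPM in any library, and 1 of its 6 markers, Myh8, was at 0. The mesothelium list, led by Msln, summed to 10.6 to 12.7 CPM in p21, 5.0 to 5.83 CPM in p16 and 10.8 to 13.7 CPM in control libraries, with none of 4 markers at 0. The endothelium list summed to 5.36 to 7.74 CPM in p21, 5.64 to 7.6 CPM in p16 and 3.9 to 5.53 CPM in control libraries, with none of 5 markers at 0, and 1 of them, Emcn, higher with both p21 and p16 (adjusted p = 0.0127 and 0.0252 by edgeR). The neural and glial list, nearly all Nes and Tubb3, summed to 497 to 548 CPM in p21, 484 to 542 CPM in p16 and 461 to 492 CPM in control libraries, and the epithelium list to 8.14 to 9.52, 6.6 to 8.36 and 4.6 to 10.1 CPM, with none of 6 markers at 0 in either list. The part of these cells in the Hox values was not tested, and in bulk RNA fewer cells of a type and less RNA per cell cannot be told apart.

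All 4 clusters were transcribed in every library, and the code was broad. Of the 39 genes, 37 had enough counts to be tested. Hoxd1 had 0 counts in all 9 libraries, and Hoxb1 had 2 counts in p21 replicate 2 and 0 elsewhere. A count of 0 allows a level of up to 0.0394 to 0.0528 CPM, depending on the library (3 counts, counting error only). Scaled to exon length, the highest gene of HoxB was Hoxb9, a gene of the thoracic region, at 15.6 ± 3.62 CPM per kb in p21, 19.9 ± 4.45 in p16 and 20 ± 4.33 in control libraries (SD, n = 3 each). Hoxd13, which patterns the digits and the genital tubercle, led HoxD at 15.3 ± 6.21 CPM per kb in p21, 10.8 ± 4.65 in p16 and 12.0 ± 4.51 in control libraries. In p21 replicates 1 and 2 Hoxd13 stood above Hoxb9 (20.8 and 16.4 against 13.9 and 13.1 CPM per kb), and in replicate 3 below it (8.59 against 19.7), so these genes have no settled order in p21 cells. Hoxd11, which patterns the forearm, came next in HoxD with 14.6 ± 4.85 CPM per kb in p21, 9.49 ± 3.36 in p16 and 9.76 ± 3.59 in control libraries, within the spread of Hoxd13. This closeness rests on a short exon length, 1111 bases for Hoxd11 against 2483 for Hoxd13. Unscaled, control means were 10.8 CPM for Hoxd11 and 29.9 CPM for Hoxd13. Gm28309 overlaps 23.9% of the exon bases of Hoxd11 on the same strand. The trunk gene Hoxb9 and the distal limb genes Hoxd11 and Hoxd13 were thus all prominent in the same cultures. Hoxc8, another thoracic gene, stood at 9.52 ± 3.05 CPM per kb in p21, 11 ± 2.27 in p16 and 9.17 ± 1.72 in control libraries. It led HoxC in p21 and p16 libraries. Hoxc6, at 8.63 ± 2.14 in p21, 10.3 ± 2.06 in p16 and 9.56 ± 1.21 in control libraries, led in control, and the 2 genes lay within each other's spread. In HoxA the highest mean over all 9 libraries was that of Hoxa10, used in the lumbar spine, the upper limb segment and the uterus. Hoxa10 stood at 8.90 ± 1.39 CPM per kb in p21, 6.50 ± 1.14 in p16 and 5.59 ± 0.874 in control libraries. It led HoxA in p21 libraries only. Hoxa5, at 6.07 ± 1.81 in p21, 6.71 ± 1.74 in p16 and 5.78 ± 1.88 in control libraries, had the higher mean in p16 and control, within the spread. The HoxC genes 11 to 13 and Hoxb13 all had group means below 1 CPM per kb, as did Hoxd3, Hoxd4 and Hoxd9.

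**Figure D1:**
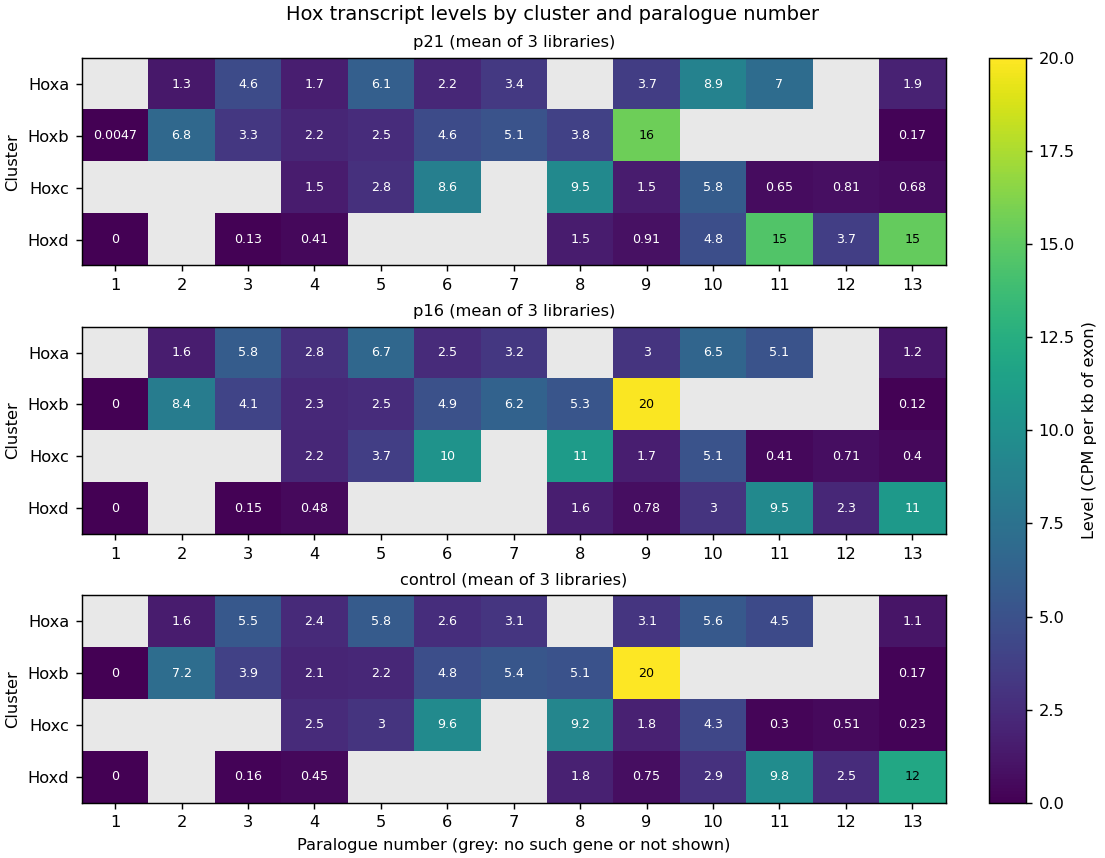
Mean level of each Hox gene in CPM per kb of exon, by cluster (rows) and paralogue number (columns), in p21, p16 and control libraries from top to bottom (3 libraries each); grey cells have no gene or are not shown. Hoxb9 has the highest mean in p16 and control libraries, in p21 libraries Hoxb9 (15.6) and Hoxd13 (15.3) lie within each other's spread, and HoxC 11 to 13 are below 1 CPM per kb.

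The Hox code also differed between replicates, in the same way in every group. Replicate 3 was the highest library of its group in all 3 groups for 22 of 37 tested Hox genes (59.5%, against 15.8% of all genes tested). It was the lowest in all 3 groups for 10 more (27%, against 17.9% of all genes). The 22 comprised 5 of 6 anterior, 14 of 15 central and 3 of 16 posterior genes, and the 10 were all posterior: Hoxa9, Hoxa10, Hoxa11, Hoxa13, Hoxc11, Hoxc12 and Hoxd10 to Hoxd13. Hoxd13 stood at 51.8, 40.8 and 21.3 CPM in p21 replicates 1 to 3, 36.1, 30.1 and 13.8 CPM in p16 replicates and 38.7, 33.7 and 17.3 CPM in control replicates. Hoxb9 went the other way, at 35.7, 33.7 and 50.8 CPM in p21, 45.4, 44.0 and 64.5 CPM in p16 and 44.1, 45.9 and 64.3 CPM in control libraries. In each group replicate 3 was thus the lowest library for Hoxd13 and the highest for Hoxb9, and the groups overlapped for both genes. The cartilage and bone markers were highest in replicate 3 as well, at 687 CPM in p21, 1140 CPM in p16 and 1430 CPM in control cells, and their part in the Hox values was not tested. Because this spread enters every test, each comparison below is also given for replicates 1 and 2 alone and with a term for replicate 3.

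The p21 and control libraries were compared to ask how far the positional code held after p21. Genes at the posterior end of the clusters rose, namely Hoxc13, Hoxc11, Hoxd10, Hoxa10 and Hoxc10, and the central gene Hoxc4 fell. With edgeR's quasi-likelihood test and Benjamini-Hochberg adjustment over all genes, 6 of 37 Hox genes passed an adjusted p of 0.05 (16.2%, against 39.9% of all 14572 genes tested). The 5 that rose are 13.5% of the tested Hox genes, against 19.3% of all genes, and the 1 that fell is 2.7%, against 20.7%. The shares of Hox genes lay below those of the whole table, and neither this nor the split by position was tested. All 12 genes of paralogues 10 to 13 had a positive log2 fold change, with a median of 0.66 and a range of 0.02 to 1.58, and 5 of them passed. The 15 central genes had a median of -0.09, with 10 negative and 1 passing, and the 6 tested anterior genes a median of -0.25, with 5 negative and none passing. Over all 37 the median was 0.05, against -0.01 for all genes tested.

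**Figure D2:**
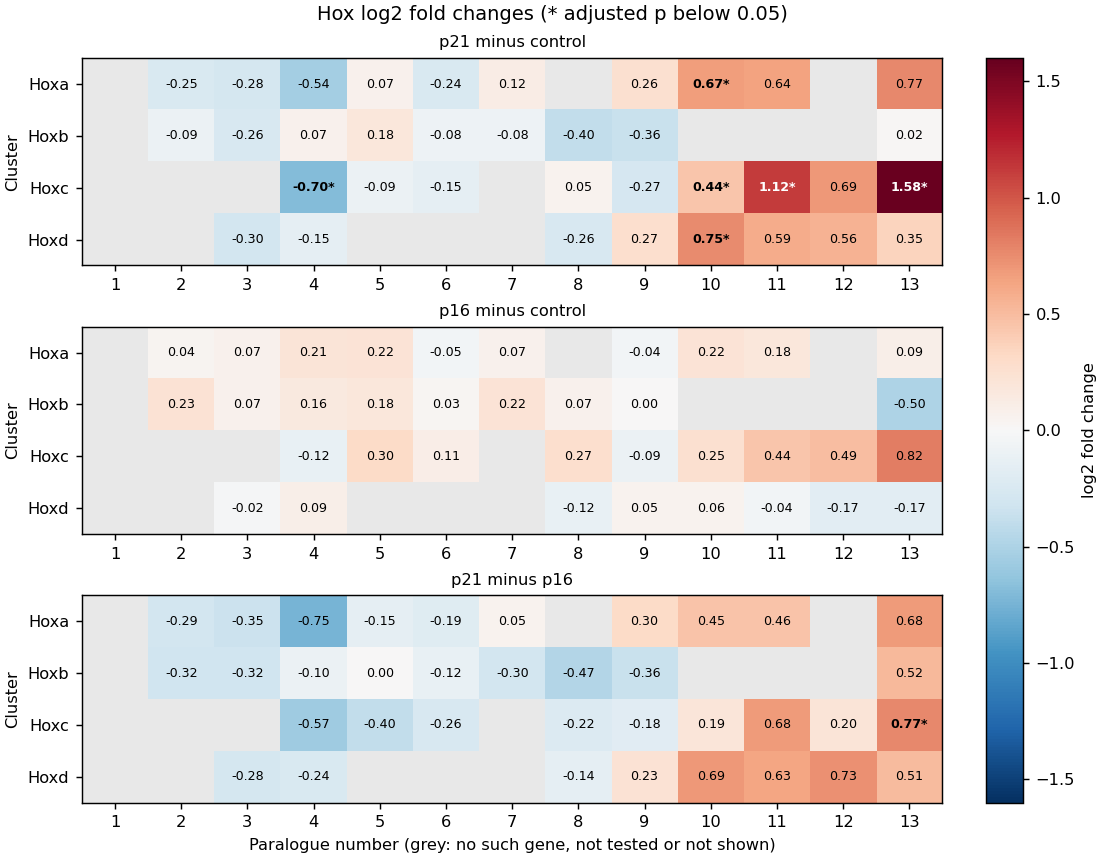
Log2 fold change of each tested Hox gene for p21 over control, p16 over control and p21 over p16, top to bottom, by cluster (rows) and paralogue number (columns); red is higher and blue lower in the first-named group, grey is no gene, not tested or not shown, and a star marks an adjusted p below 0.05. In the 2 comparisons of p21, all 12 genes of paralogues 10 to 13 are positive, whereas the middle panel has no starred gene.

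Hoxc13 (chr15:102921103-102928814, plus strand, GRCm38, the build of all positions here) is required for hair and nail formation and had the largest log2 fold change of the family for p21 minus control. It stood at 2.05, 1.64 and 1.33 CPM in p21 libraries, against 0.678, 0.495 and 0.502 CPM in control libraries, from 76 to 149 counts in p21 and 36 to 52 in control libraries. Every p21 library lay above every control library. It was 2.99-fold higher (log2 fold change 1.58 ± 0.221 SE, adjusted p = 0.00051 by edgeR's quasi-likelihood test). The call held with each of the 9 libraries left out, with adjusted p from 0.000618 to 0.0033. Its homeobox, the stretch that encodes the DNA-binding domain, is set below beside those of the other paralogue 13 genes, because near-identical copies could have shared reads. The sequences are the coding strand of GENCODE M21 transcripts on GRCm38, 5′ to 3′, with capitals at the 82 of 180 positions where the 4 genes are not all alike.
Hoxc13: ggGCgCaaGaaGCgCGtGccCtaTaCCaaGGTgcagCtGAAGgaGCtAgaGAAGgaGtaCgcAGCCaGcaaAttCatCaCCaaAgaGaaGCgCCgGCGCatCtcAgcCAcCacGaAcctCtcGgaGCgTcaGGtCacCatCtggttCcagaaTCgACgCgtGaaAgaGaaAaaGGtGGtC
Hoxa13: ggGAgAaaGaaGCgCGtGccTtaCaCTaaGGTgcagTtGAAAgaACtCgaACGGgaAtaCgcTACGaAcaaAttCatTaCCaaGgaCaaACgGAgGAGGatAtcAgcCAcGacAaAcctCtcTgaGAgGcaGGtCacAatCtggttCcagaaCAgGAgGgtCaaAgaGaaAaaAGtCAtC
Hoxb13: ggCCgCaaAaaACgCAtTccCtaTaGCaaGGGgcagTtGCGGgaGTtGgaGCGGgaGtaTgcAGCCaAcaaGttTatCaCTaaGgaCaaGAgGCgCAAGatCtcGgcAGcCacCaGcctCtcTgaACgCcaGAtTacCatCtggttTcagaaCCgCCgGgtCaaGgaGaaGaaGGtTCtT
Hoxd13: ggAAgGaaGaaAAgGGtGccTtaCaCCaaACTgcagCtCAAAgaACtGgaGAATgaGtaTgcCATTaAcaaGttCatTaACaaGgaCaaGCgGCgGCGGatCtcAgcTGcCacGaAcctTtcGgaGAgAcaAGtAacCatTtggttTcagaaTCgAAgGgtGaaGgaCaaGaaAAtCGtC
The longest run of identical bases between Hoxc13 and another of the 4 was 14, shared with Hoxa13, and their homeoboxes were alike at 77.2% of positions. Over all 39 genes, homeoboxes of the same paralogue number were alike at a median of 80.6% of bases (42 pairs), against 60.6% for different numbers (699 pairs). Among protein-coding transcripts, stretches of 50 bases common to different Hox genes were found for Hoxa6 with Hoxb4 and for Hoxb9 with Hoxc9. Other transcripts add overlaps on the same strand, of 388 exon bases of Hoxd3 with Hoxd4 and 166 of Hoxc10 with Hoxc5. The other paralogue 13 genes did not pass the test. Hoxa13, needed with Hoxd13 for the hand and foot, had 5.85, 5.10 and 3.12 CPM in p21 libraries, against 3.61, 3.16 and 1.51 CPM in control libraries (log2 fold change 0.77, adjusted p = 0.179 by edgeR). Within each replicate number p21 was higher than control, but p21 replicate 3 lay below 2 control libraries. Hoxd13 had a log2 fold change of 0.35 (adjusted p = 0.535), and Hoxb13, a gene of the prostate and tail bud at 0.0837 to 0.730 CPM in control libraries, one of 0.02 (adjusted p = 0.988).

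HoxA and HoxD genes of numbers 11 and 12 pattern the forearm and the distal limb, and none of them passed. Of the 5 genes with these numbers in any cluster, the 1 that passed was Hoxc11. Hoxc11 (chr15:102954427-102957708, plus strand) stood at 1.24, 1.78 and 0.945 CPM in p21 libraries, against 0.639, 0.701 and 0.488 CPM in control libraries. These levels rest on few reads, 54 to 122 counts in p21 and 35 to 51 in control libraries. The groups did not overlap, and Hoxc11 was 2.17-fold higher (log2 fold change 1.12 ± 0.291 SE, adjusted p = 0.0131 by edgeR). Without p21 replicate 2, its highest library, the adjusted p was 0.0539. Hoxa11, a forearm and uterus gene, had 18.9, 17.2 and 12.2 CPM in p21 libraries, against 12.6, 10.8 and 7.64 CPM in control libraries. Replicate 3 of p21 lay just below the highest control library, and the log2 fold change of 0.64 gave an adjusted p of 0.0667 by edgeR. The call appeared when control replicate 1, p21 replicate 3 or p16 replicate 3 was left out, the lowest adjusted p being 0.0308. Counting did not use strand-marked libraries, and 35% of the exon bases of Hoxa11 overlap its antisense partner Hoxa11os, so reads of the pair cannot be told apart. Hoxd11, Hoxd12 and Hoxc12 had log2 fold changes of 0.59, 0.56 and 0.69, with adjusted p of 0.214, 0.345 and 0.281. All 5 were lowest in replicate 3 of every group.

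Paralogue 10 genes specify the lumbar region and the upper limb segment, and all 3 rose. Hoxa10 (chr6:52231197-52240854, minus strand) stood at 32.6, 27.2 and 24.0 CPM in p21 libraries, against 20, 18.0 and 14.6 CPM in control libraries. There was no overlap, and Hoxa10 was 1.59-fold higher (log2 fold change 0.67 ± 0.16 SE, adjusted p = 0.00868 by edgeR). It kept its call with each library left out. Hoxd10 (chr2:74691924-74695105, plus strand), with 10.9, 9.16 and 6.11 CPM in p21 libraries, against 5.76, 6.06 and 3.74 CPM in control libraries, cleared the highest control library by little in p21 replicate 3. It was 1.68-fold higher (log2 fold change 0.75 ± 0.258 SE, adjusted p = 0.0424), and the call was lost in 7 of 9 leave-one-out fits, which omitted any control library, p21 replicate 1 or 2, or p16 replicate 1 or 2 (adjusted p up to 0.155). Hoxc10 (chr15:102966796-102971893, plus strand), with 9.61, 10.5 and 13.1 CPM in p21 libraries, against 7.90, 7.68 and 8.83 CPM in control libraries, was 1.36-fold higher without overlap (log2 fold change 0.44 ± 0.126 SE, adjusted p = 0.0194). Its call was lost without control replicate 2 or p21 replicate 3 (adjusted p up to 0.0699). Unlike Hoxa10 and Hoxd10, it was highest in replicate 3 of every group. A Hoxc5 transcript overlaps 8.7% of the exon bases of Hoxc10, and Gm28309 overlaps 5.73% of those of Hoxd10, so these counts hold some uncertainty. Summed over the 3 genes, paralogue 10 stood at 53.16, 46.90 and 43.19 CPM in p21 libraries, against 33.70, 31.78 and 27.17 CPM in control libraries, a ratio of 1.55.

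**Figure D3:**
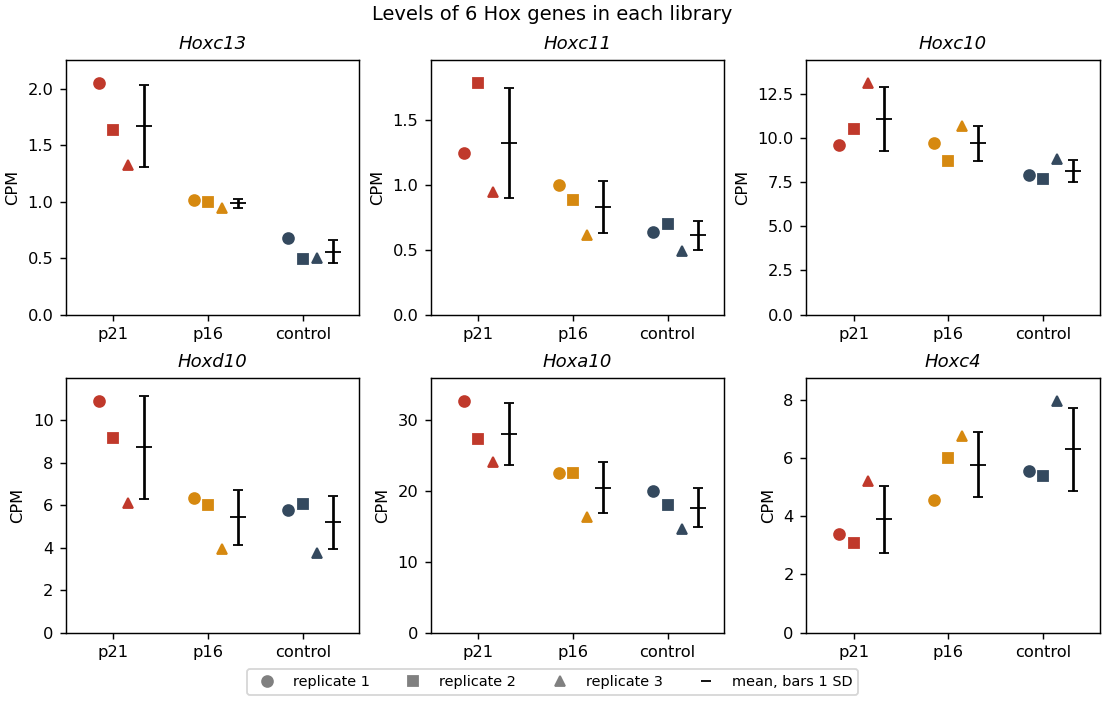
CPM of the 6 Hox genes that passed the test for p21 minus control, in each library of p21, p16 and control cells from left to right; symbols give the replicate, and the bar the mean ± 1 SD (n = 3). For all 6 genes the p21 libraries do not overlap the control libraries, and the p16 libraries overlap the control libraries for all but Hoxc13.

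The paralogue 9 genes, of the lower thorax, did not pass. Hoxa9 had 13.9, 12.3 and 9.33 CPM in p21 libraries, against 10.9, 9.93 and 8.98 CPM in control libraries (log2 fold change 0.26, adjusted p = 0.191 by edgeR). Hoxd9 had a log2 fold change of 0.27, while Hoxc9 and Hoxb9 had -0.27 and -0.36, with adjusted p of 0.345, 0.361 and 0.189. The groups overlapped for Hoxa9, Hoxd9, Hoxc9 and Hoxb9, and the signs divided HoxA and HoxD from HoxB and HoxC.

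Of the central and anterior genes, which pattern the neck, the hindbrain and the upper trunk, Hoxc4 alone passed. Hoxc4 (chr15:103018934-103036852, plus strand), a gene of the neck and upper thorax, stood at 3.40, 3.08 and 5.2 CPM in p21 libraries, against 5.57, 5.37 and 7.96 CPM in control libraries. Every p21 library lay below every control library, and Hoxc4 was 1.62-fold lower (log2 fold change -0.70 ± 0.234 SE, adjusted p = 0.0388 by edgeR). The call was lost when control replicate 3, p21 replicate 1, p21 replicate 2 or p16 replicate 2 was left out (adjusted p up to 0.133). Hoxa4, also a neck gene, had 2.2, 2.32 and 3.45 CPM in p21 libraries, against 3.30, 2.89 and 5.41 CPM in control libraries. The groups overlapped at p21 replicate 3, and the log2 fold change of -0.54 gave an adjusted p of 0.131. The antisense RNA Gm29430 overlaps 16% of its exon bases. Hoxc8 had a log2 fold change of 0.05 and Hoxd8 one of -0.26 (adjusted p = 0.874 and 0.313), and Hoxd8 passed without control replicate 1 (0.0315). Counting the whole family, all p21 libraries lay above all control libraries for 6 of 37 genes (16.2%, against 24% of all genes) and below them for 1 (2.7%, against 25.7%).

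Sums by position, given as a description, were higher in p21 libraries for posterior HoxA, HoxC and HoxD and lower for posterior HoxB. Posterior HoxA stood at 71.28, 61.91 and 48.63 CPM in p21 libraries, against 47.10, 41.89 and 32.73 CPM in control libraries. Posterior HoxD stood at 98.30, 80.12 and 44.71 CPM in p21 libraries, against 69.73, 60.19 and 32.03 CPM in control libraries. The p21 value was above the control value within each replicate number, and p21 replicate 3 lay just above the control range for HoxA and within it for HoxD. The labels state no pairing by replicate number, so comparisons within a number are descriptions, here and elsewhere. Posterior HoxC stood at 16.58, 18.45 and 20.66 CPM in p21 libraries, against 14.15, 13.60 and 14.89 CPM in control libraries, with no overlap. Posterior HoxB, nearly all of it Hoxb9, stood at 36.40, 33.84 and 51.10 CPM in p21 libraries, against 44.86, 46.23 and 64.34 CPM in control libraries. The total over all Hox genes was 348.2 ± 18.4 CPM in p21 and 328.1 ± 26.1 CPM in control libraries (SD, n = 3 each), a difference within the spread.

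**Figure D4:**
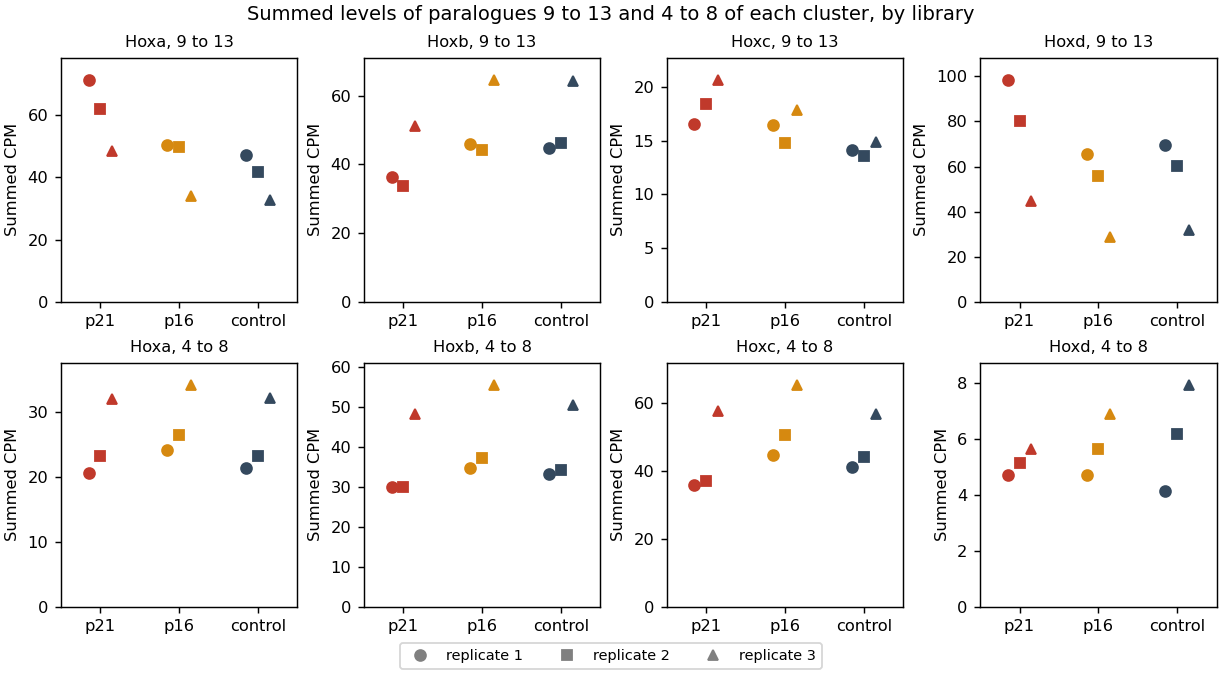
Summed CPM of paralogues 9 to 13 (top) and 4 to 8 (bottom) of each cluster in each library of p21, p16 and control cells from left to right; symbols give the replicate. Replicate 3 (triangles) is lowest of its group for posterior HoxA and HoxD and highest for all the other sums, and within a replicate number p21 lies above control for posterior HoxA, HoxC and HoxD.

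With replicates 1 and 2 alone, more Hox genes passed for p21 minus control, and all 10 that were higher were posterior. By the same edgeR test 14 of 37 passed (37.8%, against 37.5% of all genes), 10 higher (27%, against 18.3% of all genes) and 4 lower (10.8%, against 19.2%). The 10 were Hoxa9, Hoxa10, Hoxa11, Hoxa13, Hoxc10, Hoxc11, Hoxc13, Hoxd10, Hoxd11 and Hoxd12, and the 4 were Hoxb8, Hoxb9, Hoxc4 and Hoxc6. With all 9 libraries and a term for replicate 3, 17 passed (45.9%, against 50.3% of all genes), 13 higher (35.1%, against 24.2%) and 4 lower (10.8%, against 26.1%), with 11 of the 12 paralogue 10 to 13 genes among those higher. With the replicate numbers as a block, though for this pair of groups they did not all pass the pairing limit, 19 passed (51.4%, against 49.7%), 13 higher (35.1%, against 24%) and 6 lower (16.2%, against 25.7%).

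The p16 libraries were compared with the same control libraries, so the values of p16 and p21 against control are not independent. The p16 records are also numbered apart from the others, and whether their libraries were prepared apart is not given in the labels. No Hox gene passed for p16 minus control by edgeR's quasi-likelihood test (0 of 37, against 7.22% of all genes tested). Unadjusted p of this test lay under 0.05 for 2 of 37, Hoxc13 among them, against 24.6% of all genes. DESeq2 called 1, Hoxc13 (2.7%, against 12.1% of all genes). Log2 fold changes ran from -0.50 for Hoxb13 to 0.82 for Hoxc13, with a median of 0.07, against -0.01 for all genes. Hoxc13 had 1.02, 0.998 and 0.945 CPM in p16 libraries, all above the 0.678, 0.495 and 0.502 CPM of control libraries. It was 1.76-fold higher with an adjusted p of 0.0582, and 0.0237 with the replicate numbers as a block. Counting the family, 2 genes had all p16 libraries above control (5.41%, against 13.6% of all genes), and none lay wholly below (against 15.1%). The replicate numbers met the pairing limit for p16 with control, though so did p16 replicate 2 with control replicate 1 (correlation 0.3). With the numbers as a block 5 Hox genes passed (13.5%, against 17% of all genes), with Hoxa10, Hoxc5, Hoxc8 and Hoxc13 higher (10.8%, against 8.59%) and Hoxd13 lower (2.7%, against 8.38%). With the term for replicate 3 it was 2 (5.41%, against 18.2%, and against 9.07% for genes higher), Hoxc13 and Hoxc5, and with replicates 1 and 2 alone 0 (against 4.06%).

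Sums of the posterior genes in p16 libraries overlapped those of control for HoxA and HoxD. Posterior HoxA stood at 50.45, 49.83 and 33.98 CPM in p16 libraries, against 47.10, 41.89 and 32.73 CPM in control libraries, and posterior HoxD at 65.41, 55.92 and 28.90 CPM in p16 libraries, against 69.73, 60.19 and 32.03 CPM in control libraries. Within each replicate number the p16 value was above the control value for posterior HoxA and below it for posterior HoxD.

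Set against control side by side, Hoxc11 had log2 fold changes of 1.12 in p21 and 0.44 in p16, Hoxd10 of 0.75 and 0.06, and Hoxa10 of 0.67 and 0.22. Hoxc10 had 0.44 in p21 and 0.25 in p16, and Hoxc4 -0.70 and -0.12. Whether p21 and p16 differ was read from their direct comparison. Hoxc13 was the single Hox gene that passed there (1 of 37, 2.7%, against 12.8% of all genes and 6.19% for genes higher). Its 2.05, 1.64 and 1.33 CPM in p21 libraries lay above the 1.02, 0.998 and 0.945 CPM of p16 libraries, a 1.70-fold difference (log2 fold change 0.77 ± 0.213 SE, adjusted p = 0.0443 by edgeR). The call was lost without control replicate 2, p21 replicate 1 or 2, or any of the 3 p16 libraries (adjusted p up to 0.174). DESeq2 called 4 Hox genes here (10.8%, against 17.6% of all genes). Hoxa10 had 22.5, 22.5 and 16.3 CPM in p16 libraries, below every p21 library (log2 fold change 0.45, adjusted p = 0.094). Hoxa4 had 4.15, 3.81 and 5.42 CPM in p16 libraries, above every p21 library (log2 fold change -0.75, adjusted p = 0.094). Hoxa10 and Hoxc13 were the 2 genes with every p21 library above every p16 library (5.41%, against 17.5% of all genes), and Hoxa4 the 1 below (2.7%, against 18.5%). Hoxd10 had 6.34, 6.01 and 3.94 CPM in p16 libraries, with p21 replicate 3 between them (log2 fold change 0.69, adjusted p = 0.112). The 12 paralogue 10 to 13 genes were all positive for p21 minus p16 (median 0.58, range 0.19 to 0.77), the 15 central genes had 1 positive value (median -0.22) and the 6 anterior genes none (median -0.30).

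The p21 minus p16 comparison changed most with the treatment of replicate number. Here the numbers met the pairing limit too, though so did p21 replicate 2 with p16 replicate 1 (correlation 0.14), so the limit does not single out equal numbers. With the numbers as a block 20 of 37 Hox genes passed by edgeR (54.1%, against 24% of all genes), 9 higher (24.3%, against 11.8%) and 11 lower (29.7%, against 12.2%). Those higher were Hoxa9, Hoxa10, Hoxa11, Hoxa13, Hoxc13 and Hoxd10 to Hoxd13, and those lower included Hoxa4, Hoxb9, Hoxc4, Hoxc5 and Hoxc6. With the term for replicate 3, 20 passed as well (54.1%, against 24.9%), 10 higher (27%, against 12.3%) and 10 lower (27%, against 12.5%). With replicates 1 and 2 alone 13 passed (35.1%, against 12.3%), 7 higher (18.9%, against 6.08%) and 6 lower (16.2%, against 6.27%). Hoxc13 was not among these 13 (log2 fold change 0.87, adjusted p = 0.0587). Every gene that was higher in these fits was of paralogue 9 to 13, and the lower ones were of paralogues 2 to 9.

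Stretches before the transcription starts are shown for Hoxa10 and Hoxd10, which rose together, and for Hoxc4, which fell. They are the 250 bases before a RefSeq start on GRCm38.p6, 5′ to 3′ on the gene's strand, and of 2 starts of Hoxa10 the one with a motif match is shown. Capitals mark matches to any of 5 motifs, searched on both strands: TATAAA, known as the TATA box; the element AGGTCA of nuclear receptors; the element TGATNNAT bound by Pbx with Hox proteins; and, from promoters of cell-cycle genes, TTTGAA as well as TTTNNCGC.
Hoxa10, chr6:52234940-52235189, minus strand: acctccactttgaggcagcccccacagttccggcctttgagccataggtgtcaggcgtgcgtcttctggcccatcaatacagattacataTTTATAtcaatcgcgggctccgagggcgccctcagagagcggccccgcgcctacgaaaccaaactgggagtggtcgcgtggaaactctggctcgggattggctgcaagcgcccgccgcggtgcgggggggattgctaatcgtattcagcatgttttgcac
Hoxd10, chr2:74691641-74691890, plus strand: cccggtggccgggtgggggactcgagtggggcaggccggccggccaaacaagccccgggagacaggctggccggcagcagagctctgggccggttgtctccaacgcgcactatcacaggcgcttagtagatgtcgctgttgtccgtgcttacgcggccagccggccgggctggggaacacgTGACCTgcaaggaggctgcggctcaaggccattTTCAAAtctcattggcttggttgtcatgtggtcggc
Hoxc4, chr15:103034145-103034394, plus strand: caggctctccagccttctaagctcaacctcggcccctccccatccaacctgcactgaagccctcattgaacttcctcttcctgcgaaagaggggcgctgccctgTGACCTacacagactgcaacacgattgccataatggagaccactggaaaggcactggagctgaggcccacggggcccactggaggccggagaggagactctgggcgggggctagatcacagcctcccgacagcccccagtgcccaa
Hoxa10 held a TATAAA match on the reverse strand, Hoxd10 an AGGTCA match and a TTTGAA match, both reversed, and Hoxc4 a reversed AGGTCA match. Windows of 300 bases, 250 before and 50 after the start, were available for 22 Hox genes (24 windows). TATAAA was found in 16.7% of them, against 13.6% of all 32851 windows, AGGTCA in 29.2% against 16.3%, and TTTGAA in 20.8% against 17.9%. TGATNNAT was found in 16.7% against 8.85%, and TTTNNCGC in 4.17% against 5.17%. A match is a string of letters and not a site.

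Partners and regulators of Hox genes were counted from lists of related genes. TALE homeodomain proteins bind DNA together with Hox proteins, and of 9 tested 1 fell with p21 (11.1%, against 20.7% of all genes): Pknox2, at 5.36 ± 1.54 CPM in p21, 7.77 ± 1.67 in p16 and 10.1 ± 3.50 in control libraries (SD, n = 3 each; log2 fold change -0.92, adjusted p = 0.0248). Polycomb proteins keep Hox genes silent outside their domains, and 10 of 22 fell (45.5%, against 20.7% of all genes) and none rose with p21, the list's median being -0.15, against -0.01 for all genes. Phc1 stood at 17.4 ± 0.809 CPM in p21, 23.9 ± 1.07 in p16 and 31.2 ± 1.95 in control libraries (log2 fold change for p21 minus control -0.85, adjusted p = 2.03e-05). Suz12, a subunit of the H3K27 methyltransferase complex, had a log2 fold change of -0.32, Cbx2 of -0.61 and Phf19 of -1.0, and Phc1 and Phf19 also fell with p16 (2 of 22, 9.09%, against 3.65% of all genes lower). Trithorax proteins and H3K27 demethylases keep Hox genes active, and 7 of 10 fell with p21 (70%, against 20.7%) and 5 of 10 with p16 (50%, against 3.65%). The demethylases Kdm6a and Kdm6b were not among them (adjusted p = 0.442 and 0.262 for p21 minus control, and 0.844 and 0.505 for p16 minus control, by edgeR). Psip1 had log2 fold changes of -0.81 for p21 and -0.34 for p16 (adjusted p = 1.37e-05 and 0.00935). These shares describe lists chosen with earlier results known and were not tested.

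Retinoic acid is a known inducer of Hox genes from their anterior ends, and in the list that also holds Cdx genes and Gdf11, 4 of 13 tested genes rose with p21 (30.8%, against 19.3% of all genes) and 2 fell (15.4%, against 20.7%). Aldh1a1, which makes retinoic acid, stood at 2.02 ± 0.182 CPM in p21, 0.789 ± 0.0284 in p16 and 0.319 ± 0.123 in control libraries (SD, n = 3 each). Its log2 fold changes were 2.66 for p21 minus control and 1.3 for p16 minus control (adjusted p = 8.23e-05 and 0.0243 by edgeR). Those of the receptor Rxra, 0.24, and of the retinoic acid carriers Crabp2, 0.63, and Crabp1, -1.2, also passed for p21 minus control. With p16, Aldh1a1 was the 1 gene of the list that passed (7.69%, against 3.57% of all genes higher). Of 3 tested non-coding RNAs of the clusters, Hottip, Hoxa11os and Mir196a-1, none passed, with Hottip at a log2 fold change of 0.82 (adjusted p = 0.173). Of 10 tested genes that flank the clusters, 2 rose (20%, against 19.3%) and 1 fell (10%, against 20.7%) with p21, shares close to or below those of all genes: Hibadh beside HoxA and Calcoco1 beside HoxC rose by 0.34 and 0.46 on the log2 scale, and Cbx5 beside HoxC fell by 0.50. For p21 minus p16, 5 of 22 Polycomb genes (22.7%) and 1 of 10 trithorax genes (10%) were lower, against 6.64% of all genes, and none was higher. In the retinoic acid list 3 of 13 were higher (23.1%, against 6.19%) and 1 lower (7.69%, against 6.64%).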

How the data were processed

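Counts per gene were deposited by the authors as whole numbers, not normalised. The submitters' processing notes name the build mm10 and featureCounts 1.4.6 (Subread), Bowtie2 2.2.6 and TopHat2 2.0.14, and the sources used here give no annotation or strand setting. Per the labels' protocols, libraries were made with a TruSeq kit (version 2), which does not mark strand. Library totals were 56.9 to 76.1 M (M, 1000000).

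One fit of the 3 group means to 9 libraries was made with edgeR 4.0.16 (R 4.3.3; filterByExpr, TMM, quasi-likelihood F test), leaving 14572 genes; p-values were Benjamini-Hochberg adjusted over them, with a threshold of 0.05. SE is the size of the log2 fold change over the square root of F. The fit was tested on simulated counts drawn independently for each library, with no replicate effect. That test therefore does not cover the spread by replicate number seen here. Levels are CPM, and CPM per kb of GENCODE M21 exons. DESeq2 1.42.0, other scalings and filters, replicate terms and leave-one-out fits were alternatives. Within each group no library repeated another (chi-square per degree of freedom 10.4 to 101), and pairs from different groups were not checked.

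Same-numbered libraries' deviations correlated at 0.25, 0.11 and 0.55 for p16 with control. For p21 with p16 they correlated at 0.16, 0.29 and 0.48, and all these values lay above the limit of 0.1. In the block fit these numbers were therefore treated as pairing libraries, from the data alone. The main fit has no term for replicate number. Libraries of unlike number correlated at -0.45 to 0.3 for p16 with control and at -0.35 to 0.14 for p21 with p16. Some of them thus passed the limit as well, and the labels do not state a pairing. Every Hox gene was counted, and 1 is not reported here by name; genes past the threshold in a contrast, the highest per length in each cluster and those whose call changed on leaving out a library are given per library, and from each related list up to 4 called genes by lowest adjusted p. Members and lists were chosen with earlier results of these data known, and marker genes named singly after their values were seen.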

Additional observations from a re-analysis of the deposited data

Results flagged for a closer look

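Hoxc13 differed between the effects of p21 and p16 against the same control libraries, by a log2 difference of 0.77 in the direct p21 minus p16 test (adjusted p = 0.0443 by edgeR's quasi-likelihood test). It averaged 1.67 ± 0.362 CPM in p21, 0.986 ± 0.037 CPM in p16 and 0.558 ± 0.104 CPM in control libraries (SD, n = 3 each), and all 3 p21 libraries lay above all 3 p16 libraries. The call was lost without control replicate 2, p21 replicate 1 or 2, or any p16 library (adjusted p up to 0.174 by edgeR). It was also lost without a filter and with replicates 1 and 2 only. With the replicate block 20 of 37 Hox genes passed, so Hoxc13 was not alone there.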

How the results depend on the processing

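The count of Hox genes past the threshold depended on how replicate number entered the fit. The share of all genes past the threshold moved as well and is given in parentheses. For p21 minus control the count was 6 (39.9%), and 19 with the replicate block (49.7%), 17 with the term for replicate 3 (50.3%), 14 with replicates 1 and 2 only (37.5%) and 3 to 7 with a library left out (28.6% to 39.1%). The numbers of p21 and control did not all pass the pairing limit (0.18, 0.025 and 0.49), so the block is given there only as an alternative. For p16 minus control the count was 0 (7.22%), and 1 with DESeq2 (12.1%), 1 with a filter of at least 1 CPM in 3 libraries (9.99%), 5 with the replicate block (17%), 2 with the replicate 3 term (18.2%) and 0 in every leave-one-out fit (1.5% to 6.42%). For p21 minus p16 it was 1 (12.8%), and 4 with DESeq2 (17.6%), 0 without a filter (8.65%), 20 with the replicate block (24%), 20 with the replicate 3 term (24.9%), 13 with replicates 1 and 2 only (12.3%) and 0 to 4 with a library left out (4.06% to 16.7%). The summed HoxA level had a log2 ratio of p21 over p16 of 0.13 in CPM and 0.08 in CPM per kb. Some single genes changed sign. Hoxc8 for p21 minus control was 0.05, and -0.08 with replicates 1 and 2 only, -0.06 without control replicate 1 and -0.24 without p21 replicate 3 (leave-one-out range -0.24 to 0.21). For p16 minus control Hoxc4 was -0.12, and 0.08 without control replicate 3 and 0.02 without p16 replicate 1 (range -0.25 to 0.08), and Hoxd10 was 0.06, and -0.12 without control replicate 3, -0.06 without p16 replicate 1 and -0.01 without p16 replicate 2 (range -0.12 to 0.26). The cause was not tested. The left-out libraries for summed levels were chosen after seeing the data and moved no sum beyond the spread. Depth limits Hoxb1, Hoxd1 and Hoxb13, with at most 56 counts. Counts were also low for Hoxc11 (35 to 122), Hoxc12 (18 to 71), Hoxc13 (36 to 149) and Hoxd3 (17 to 76).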

Other observations

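Among other transcription factors of position outside the Hox clusters, a few passed the test with p21, at shares below those of all genes. Of 39 tested, 3 rose (7.69%, against 19.3% of all genes) and 7 fell (17.9%, against 20.7%) for p21 minus control by edgeR, with a median log2 fold change of 0.03, against -0.01 for all genes. Msx2, a factor of the limb bud and skull, stood at 35.0 ± 9.49 CPM in p21, 18.7 ± 2.65 CPM in p16 and 11.3 ± 3.49 CPM in control libraries (SD, n = 3 each), a log2 fold change of 1.63 for p21 minus control (adjusted p = 0.000787). Meox1, a somite factor, stood at 3.95 ± 0.217 CPM in p21, 5.71 ± 0.738 CPM in p16 and 7.92 ± 1.59 CPM in control libraries, a log2 fold change of -1.0 (adjusted p = 0.000788). Twist1 and Foxc2, factors of the mesenchyme, fell by 0.31 and 0.23 on the log2 scale. No gene of this list passed for p16 minus control, and for p21 minus p16 Msx2 and Pitx1, a hindlimb factor, were higher (5.13%, against 6.19%) and Meox1 lower (2.56%, against 6.64%).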
